A study of Mus musculus with 6 samples.

Results

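The 10 genes described here, of 22558 in the deposited tables, encode receptors, ligands and other secreted or surface products that are associated with trophoblast, the outer lineage of the embryo that builds the placenta. They are Csf1r and Fgfr2 (receptors), Sct, Bmp8b and Wnt7b (ligands), Lgals3, Plac1, Tgm2 and Tpbpa (other secreted, surface or matrix products) and Cited2, which encodes a nuclear co-regulator and so goes against the description of surface and secreted products. All 10 names were found in each of the 3 tables. The genes were chosen by name, with their difference between H2A.X knockout and Flox/Flox embryonic stem cells (ESC) already known, so that difference is given as a description with no test.

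Trophoblast cells and the fetal and maternal cells around them exchange signals during implantation and placental growth. FGF ligands from the epiblast act on FGFR2 in the trophectoderm and maintain trophoblast stem cells, BMP8B is made by extraembryonic ectoderm and takes part in germ cell induction, and WNT7B is needed for fusion of the chorion with the allantois. CSF1, made by the uterus, acts on CSF1R, which both trophoblast and macrophages carry, and galectin-3 and transglutaminase 2 act at cell surfaces and in the extracellular matrix.

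The study sequenced messenger RNA from 6 mouse pluripotent cultures, with 1 library per culture. The ESC, of 129Sv background and from embryos, carried either a Cre-deleted H2A.X gene (H2A.X KO) or the undeleted Flox/Flox alleles. H2A.X is the histone variant that is phosphorylated around DNA breaks. The induced pluripotent stem cells (iPSC), of a 129Sv/C57 mix, had as parental cells either peritoneal fibroblasts (PF) or fibroblasts of the tail tip (TTF), and each parental type gave 1 line labelled 4N+ and 1 labelled 4N-; their labels list no genotype, and the label 4N is not spelled out there. All cultures were at passage 25, grew on feeder cells with LIF and were split onto gelatin shortly before lysis, and how many independent clones or animals stand behind each culture is not stated.

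Values are FPKM, which divide the fragments of a gene by its transcript length and by the depth of the library, so levels can be set side by side between genes. The 3 tables may have been scaled separately, and levels set side by side between tables carry that limit. ESC and iPSC also differed in strain background, so kind of culture, strain and table cannot be told apart between them. With 1 library per condition no comparison inside a table has a replicate check. The effective divisor behind the values was 39059573 to 61181149 fragments per library. It turned the FPKM of 8 of the 10 genes into whole fragment numbers in all 6 libraries, to within 0.05 fragments or 0.005% of the count. Lgals3 and Tgm2 met only the second limit, at distances of up to 0.101 and 0.0681 fragments, and the numbers of Fgfr2 and Wnt7b are approximate. Intervals on ratios are 95% conditional exact binomial intervals from these fragments and cover counting error only. H2afx, the deleted gene, was 34.9 FPKM in the Flox/Flox ESC and 6.18 in the KO ESC, from 2011 and 279 fragments, so the library labelled KO held less of its transcript and was not without it. Genes at 5 FPKM or more in both ESC libraries had a median log2 ratio of -0.20, and the ratios below are larger by that amount when centred on it.

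Of the 10 genes, 9 reached 1 FPKM in at least 1 ESC library, and 8 of these 9 were at least 2-fold higher in the KO ESC on the log2(FPKM + 1) scale. That scale adds a pseudocount of 1 FPKM to both values. The 2-fold counts below use it unless another pseudocount is named. Genes at low levels can therefore differ more than 2-fold in FPKM and not be counted. Over all 12086 genes that reached 1 FPKM, 7.49% were at least 2-fold higher. The genes were selected on this contrast, so nothing is read from the difference between these shares. The median log2 ratio of the 9 genes was 2.10, with a range of 0.45 to 4.61, against -0.03 over all genes. The authors' deposited table marks 5 of the 10 as significantly higher in the KO ESC (Lgals3, Csf1r, Tgm2, Plac1 and Sct), where it marks 1.38% of 14589 tested genes. That table's test also had 1 library per condition. In these bulk cultures, more cells that express a gene and more RNA per cell cannot be told apart.

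**Figure D1:**
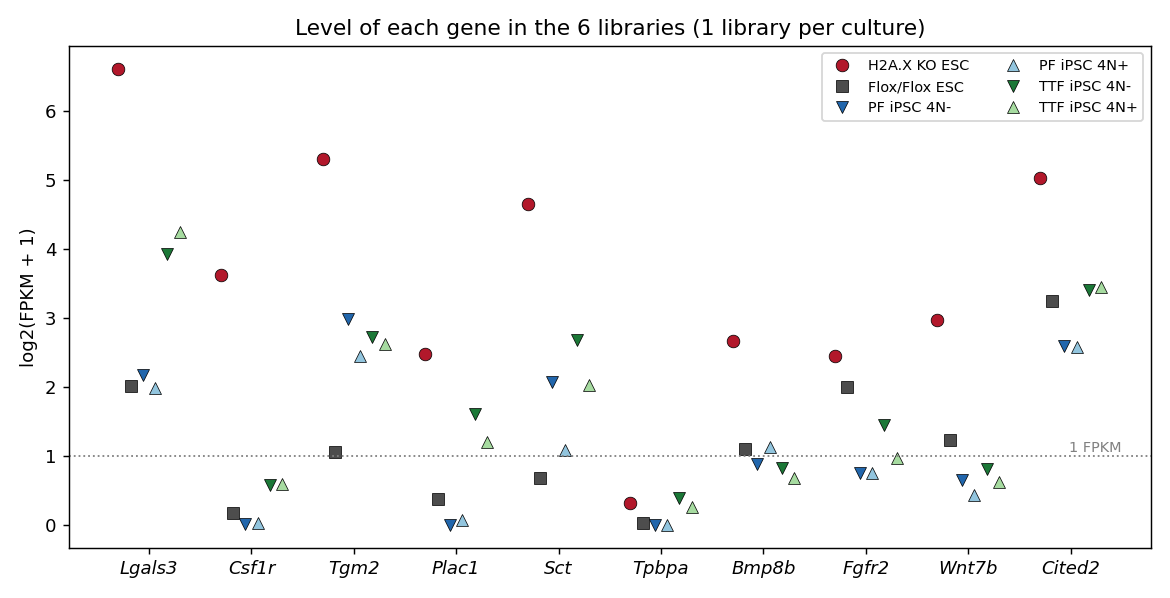
Level of each of the 10 genes as log2(FPKM + 1) in the 6 libraries, 1 point per library; the dotted line marks 1 FPKM. The KO ESC held the highest level of 9 genes, Lgals3 reached 97.2 FPKM there, and Tpbpa stayed below 1 FPKM in every library. The genes were selected on the ESC contrast, and levels from separate tables may be scaled differently. The share of all genes highest in the KO ESC was not computed, so nothing is read from the count.

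Csf1r, on chromosome 18, encodes the receptor tyrosine kinase for CSF1 and IL34. Its level was 11.3 FPKM in the KO library and 0.131 in the Flox/Flox library. In the iPSC it was 0.00614 (PF 4N-), 0.0184 (PF 4N+), 0.499 (TTF 4N-) and 0.502 FPKM (TTF 4N+), so the KO ESC was the only one of the 6 libraries above 1 FPKM. The KO level was 86.5-fold the Flox/Flox level (57.9 to 135, from 1626 and 24 fragments) and 22.6-fold the next highest library.

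Macrophages also carry Csf1r, and their markers were examined in the same libraries. Of 14 other macrophage markers, 11 stayed below 1 FPKM in all 6 libraries. Ptprc, the pan-leukocyte phosphatase CD45, stood at 0.0406 FPKM in the KO ESC, Emr1 (F4/80) at 0.00842, Lyz2 at 0.0900, and Tyrobp and Fcgr1 were listed at 0. The other 3 were measured. Cd68, a lysosomal glycoprotein, was 41.6 FPKM in the KO and 11.6 in the Flox/Flox ESC, and Cd74, the invariant chain, was 4.76 and 0.555. Laptm5, a lysosomal protein known from blood cells, was 10.9 FPKM in both. The summed level of the 14 markers was 59.0 FPKM in the KO ESC, 24.8 in the Flox/Flox ESC and 18.3 to 44.8 in the iPSC.

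Most measured trophoblast markers were also higher in the KO ESC. Of 20 trophoblast markers, 14 were measured in the ESC. Of these, 12 were higher in the KO, 11 of them at least 2-fold, and 2 were lower by less than 2-fold. The lower ones, named after their values were seen, were Eomes (1.79 against 2.65 FPKM) and Ascl2 (1.65 against 1.81). The median log2 ratio was 3.07, and the summed level was 1686 against 137.6 FPKM. The simple-epithelium keratin Krt8 was 188 against 6.80 FPKM, Krt18 659 against 26.7, the homeobox gene Rhox6 247 against 11.01, and Hand1, a factor of trophoblast giant cells, 34.0 against 0.829. Cdx2, the factor that sets up trophectoderm, stayed below 1 FPKM, at 0.765 in the KO and 0.0930 in the Flox/Flox ESC, and Elf5 was 0.0382 and 0.0199. The giant cell hormone genes Prl3d1, Prl2c2 and Prl3b1 were listed at 0 in both ESC libraries. The marker list was drawn up with earlier results of these libraries known, so it is no independent evidence of its direction.

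**Figure D2:**
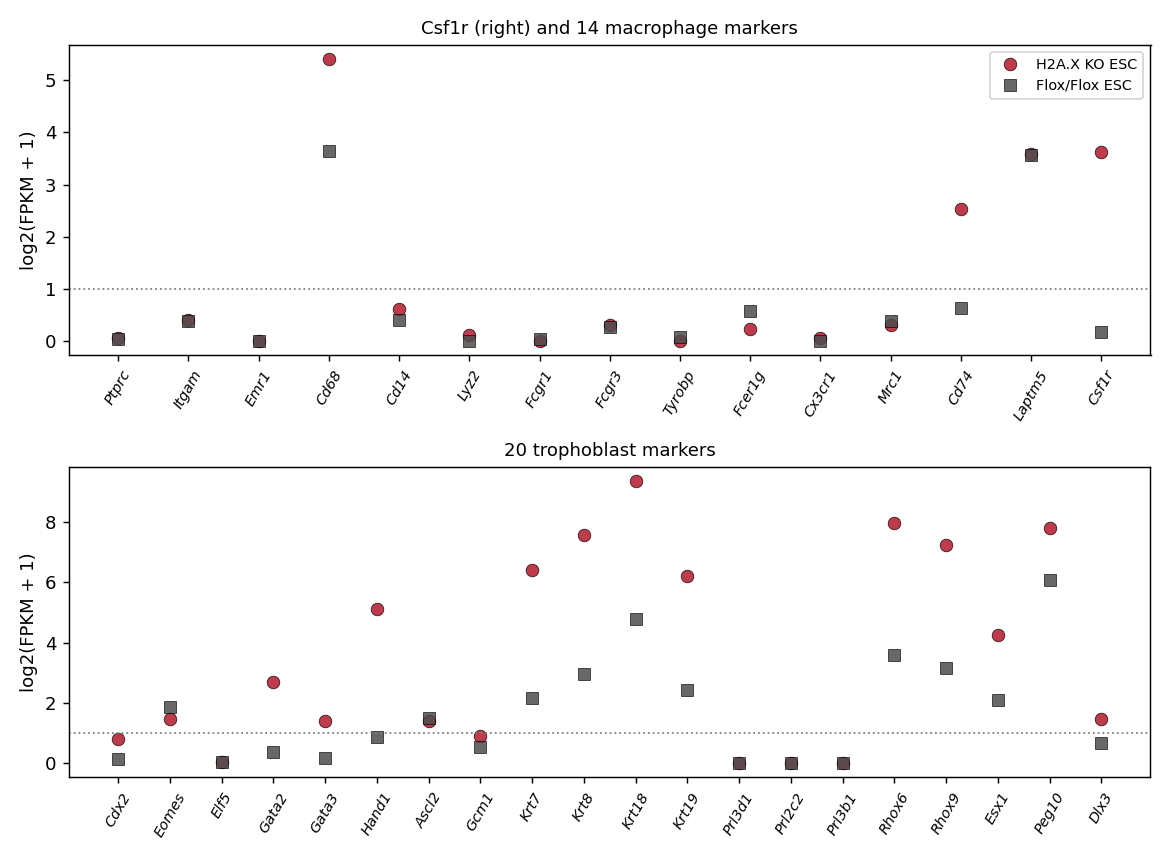
Levels as log2(FPKM + 1) of Csf1r with 14 macrophage markers (top) and of 20 trophoblast markers (bottom) in the KO (circles) and Flox/Flox ESC (squares); the dotted line marks 1 FPKM. Csf1r reached 11.3 FPKM in the KO ESC while 11 macrophage markers lay below 1 FPKM, and Krt8, Krt18, Rhox6 and Hand1 stood well above their Flox/Flox levels.

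Other cell types were checked as well. Of 12 fibroblast and feeder markers, 3 were measured in the ESC, with a summed level of 9.99 FPKM in the KO and 2.67 in the Flox/Flox library. Of 14 primitive and visceral endoderm markers, 3 were measured, and most of their sum of 253 against 63.1 FPKM came from Sparc, a matrix protein of many cell types, at 247 against 60.2. Gata4 was 2.29 against 0.598 FPKM, while Sox17, Foxa2, Afp and Ttr stayed below 1 FPKM in all 6 libraries. All 14 pluripotency markers were measured, 13 were lower in the KO and 3 of them at least 2-fold lower: Tet1 (21.5 against 82.1 FPKM), Sox2 (48.5 against 142) and Tdgf1 (360 against 772). The part that any of these cell types had in the levels of the 10 genes was not tested.

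Among the genes that pair with Csf1r or resemble it, Csf1, the ligand, was 15.3 FPKM in the KO and 0.821 in the Flox/Flox ESC. On the log2(FPKM + 1) scale Csf1 was the only one of 4 measured genes of a 9-gene list at least 2-fold higher. None was at least 2-fold lower. Il34, the second ligand of the receptor, was 1.20 against 0.529 FPKM, a log2(FPKM + 1) ratio of 0.52. Kit, a receptor of the same family, was 9.90 against 10.5. Receptor and ligand were thus both higher in the KO library, whereas Kit was nearly level.

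Fgfr2, the receptor for FGF ligands (mm9 chromosome 7, 137305965 to 137410322), was the measured gene that did not reach 2-fold. It stood at 4.47 FPKM in the KO and 2.99 in the Flox/Flox ESC, a ratio of 1.49 (1.34 to 1.66, from approximate fragments). The iPSC had 0.684 (PF 4N-), 0.686 (PF 4N+), 1.73 (TTF 4N-) and 0.952 FPKM (TTF 4N+), so both ESC libraries were above all 4 iPSC lines. The share of all genes that separate ESC from iPSC in this way was not computed, so nothing is read from that order. Which splice form was present cannot be read from gene-level values. Of 26 FGF receptors, ligands and feedback targets, 17 were measured in the ESC, none was at least 2-fold higher in the KO and 3 were at least 2-fold lower. These were the ERK feedback inhibitors Spry4 (5.24 against 19.5 FPKM) and Spred1 (17.0 against 43.0) and the ERK-responsive factor Etv5 (15.3 against 35.7). Fgf4, the ligand made by pluripotent cells, was 42.9 FPKM in the KO and 86.8 in the Flox/Flox ESC. Its log2(FPKM + 1) ratio of -0.9995 fell just short of the 2-fold limit.

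Sct encodes secretin, a peptide hormone best known from the gut (mm9 chromosome 7, 148464237 to 148465030). It stood at 24.2 FPKM in the KO and 0.596 in the Flox/Flox ESC, and the latter was the lowest of the 6 libraries. The iPSC had 3.20 (PF 4N-), 1.12 (PF 4N+), 5.45 (TTF 4N-) and 3.07 FPKM (TTF 4N+). The ESC ratio was 40.7 (21.1 to 89.9), from 287 and 9 fragments, few because the transcript is short. Secretin's receptor gene Sctr was 0.0298 FPKM in the KO and at 0 in the Flox/Flox ESC, and none of the 14 hormones and receptors of the secretin family on the list reached 1 FPKM in either ESC library. The ligand was thus measured while the family's receptors on the list stayed below 1 FPKM. The highest of these in the KO ESC were Glp1r at 0.983 and Gipr at 0.935 FPKM.

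The 250 bases upstream of the annotated start of Sct are shown because its log2(FPKM + 1) ratio was the largest of the measured genes in both iPSC pairs. The window is from RefSeq on GRCm38.p6, minus strand, chr7:141279134-141279383, a build other than that of the deposited coordinates. It is printed 5′ to 3′ with E-boxes (CANNTG, the letters bound by basic helix-loop-helix factors such as HAND1) in capitals.

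Sct: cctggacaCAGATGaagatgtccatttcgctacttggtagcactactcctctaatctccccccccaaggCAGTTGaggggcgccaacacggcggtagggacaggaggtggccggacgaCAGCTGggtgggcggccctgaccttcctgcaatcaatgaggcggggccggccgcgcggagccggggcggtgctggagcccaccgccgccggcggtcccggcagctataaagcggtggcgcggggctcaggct

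The window held 3 E-boxes and had 68.0% G+C, against a median of 52.4% over all windows. It had no match to the GATA motif (AGATAA) or the TEAD motif (GGAATG) on either strand. RefSeq windows were matched for 7 of the 10 genes, with 2 for Plac1, and 6 of these 8 held an E-box, as did 66.2% of 32851 promoter windows of that length. Csf1r was left out of the matching by its chromosome, a filter not applied to the 32851 windows. No window was matched for Tgm2 or Wnt7b. A GATA motif lay in 1 of the 8 against 9.99% of all windows, and a TEAD motif in none against 12.6%. A match is a run of letters and not an observed binding site.

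Bmp8b, a BMP ligand of extraembryonic ectoderm (mm9 chromosome 4, 122782408 to 122803334), stood at 5.32 FPKM in the KO and 1.14 in the Flox/Flox ESC. The iPSC had 0.848 (PF 4N-), 1.18 (PF 4N+), 0.771 (TTF 4N-) and 0.599 FPKM (TTF 4N+). The ESC ratio was 4.66 (3.89 to 5.59, from 569 and 156 fragments), and the other 5 libraries lay close together. Its row overlaps that of Oxct2b, strand use is not stated, and 7.61% of the 50-base words of its longest transcript also occur in other genes, Bmp8a among them, so the value is uncertain to that extent.

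Of 30 BMP ligands, receptors, Smads, targets and antagonists, 19 were measured in the ESC, 5 were at least 2-fold higher in the KO and 1 was at least 2-fold lower. The 3 inhibitor-of-differentiation genes, which BMP signalling induces, were among the 5: Id3 was 23.7 against 6.48 FPKM, Id2 49.7 against 19.6 and Id1 39.0 against 16.1. The ligands Bmp8a (1.41 against 0.0939 FPKM) and Bmp7 (3.39 against 1.10) were the others, and the exception was Gdf3, at 13.5 against 30.2 FPKM. The median log2 ratio of the list was 0.24, against -0.03 over all genes. Bmp7, Gdf3 and, among the WNT genes, Fzd7 were named after their values were seen, to complete these small counts.

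Wnt7b, a WNT ligand of the chorion (mm9 chromosome 15, 85365867 to 85424138, overlapping the row of AU022754), stood at 6.86 FPKM in the KO and 1.35 in the Flox/Flox ESC. The iPSC had 0.576 (PF 4N-), 0.355 (PF 4N+), 0.758 (TTF 4N-) and 0.539 FPKM (TTF 4N+), all below both ESC libraries. As for Fgfr2, nothing is read from that order, since its share over all genes was not computed. Between the ESC libraries the ratio was 5.08 (4.37 to 5.93, from approximate fragments). Of 44 WNT ligands, receptors and feedback targets, 23 were measured, and past 2-fold 3 were higher and 2 lower in the KO. The higher ones were the ligands Wnt9a (6.29 against 0.754 FPKM) and Wnt7a (1.56 against 0.0540) and Wls, which carries WNT proteins to the cell surface (13.7 against 2.67). The lower ones were Lef1, a nuclear effector and WNT target (3.09 against 10.7), and the receptor Fzd7 (11.7 against 27.9). The list's median log2 ratio was 0.27, against -0.03 over all genes.

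Lgals3 encodes galectin-3, a lectin that binds galactose-containing glycans at the cell surface and in the matrix (mm9 chromosome 14, 47993535 to 48005842). It stood at 97.2 FPKM in the KO ESC, the highest level of the 10 genes in any library, and at 3.02 in the Flox/Flox ESC. The iPSC had 3.53 (PF 4N-), 2.95 (PF 4N+), 14.3 (TTF 4N-) and 18.1 FPKM (TTF 4N+). The ESC ratio was 32.2 (27.7 to 37.6, from 4463 and 177 fragments) and the log2 ratio ranked 18 of 12086. The Flox/Flox ESC and both PF lines lay near 3 FPKM, and both TTF lines lay between them and the KO ESC.

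Of the other galectin genes and the galectin-3 binding protein, 5 of 9 were measured, 2 were at least 2-fold higher in the KO and none at least 2-fold lower. Lgals1, the most abundant of them, was 301 against 78.1 FPKM, and Lgals3bp was 1.80 against 0.225. Lgals8 was 6.23 against 3.36 FPKM, and Lgals9 was 16.4 against 27.0, the one of the 5 that was lower in the KO.

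The windows of Lgals3 and Plac1 are shown beside that of Sct because these genes differed most between TTF and PF lines. The Lgals3 window is on the plus strand, chr14:47373610-47373859. The Plac1 windows are on the minus strand, chrX:53114406-53114655 for the downstream start and chrX:53240111-53240360 for the upstream start. Capitals mark E-boxes and, in the upstream Plac1 window, the GATA motif, which reads TTATCT because it lies on the other strand.

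Lgals3: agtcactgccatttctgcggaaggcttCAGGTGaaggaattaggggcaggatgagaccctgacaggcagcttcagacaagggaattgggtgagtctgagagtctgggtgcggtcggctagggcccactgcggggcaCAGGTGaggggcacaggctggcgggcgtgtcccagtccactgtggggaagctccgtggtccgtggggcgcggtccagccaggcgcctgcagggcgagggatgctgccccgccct

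Plac1, downstream start: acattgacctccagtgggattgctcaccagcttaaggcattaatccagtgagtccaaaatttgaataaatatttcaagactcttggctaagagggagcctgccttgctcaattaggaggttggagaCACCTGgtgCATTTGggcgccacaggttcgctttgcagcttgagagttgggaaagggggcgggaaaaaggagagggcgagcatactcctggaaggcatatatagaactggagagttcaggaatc

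Plac1, upstream start: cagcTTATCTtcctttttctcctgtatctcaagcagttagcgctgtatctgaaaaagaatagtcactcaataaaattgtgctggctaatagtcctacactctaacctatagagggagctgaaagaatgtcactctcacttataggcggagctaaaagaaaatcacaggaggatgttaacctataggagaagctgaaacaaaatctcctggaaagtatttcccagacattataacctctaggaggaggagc

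The Lgals3 window held 2 E-boxes of the same letters (CAGGTG) and 66.0% G+C. The downstream Plac1 window held 2 E-boxes and the upstream one none, and the GATA motif of the latter began at position -246 from the start. The upstream window also had the lowest G+C of the 8, at 40.4%.

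Plac1 encodes a placenta-enriched secreted or membrane-associated protein whose loss disturbs placental growth (mm9 chromosome X, 50423179 to 50467582). It stood at 4.58 FPKM in the KO and 0.301 in the Flox/Flox ESC. The PF 4N- line was at 0, where the limit allowed by a count of 0 (3 fragments) is 0.0780 FPKM, and the PF 4N+ line was at 0.0520. The TTF lines had 2.06 (4N-) and 1.31 FPKM (4N+), above the Flox/Flox ESC. The KO level was 15.2-fold the Flox/Flox level (8.64 to 29.2, from 155 and 13 fragments). Of 7 placenta-named or oocyte-coat genes, 2 were measured and neither was higher in the KO. Plac8 was 11.2 against 26.6 FPKM, past 2-fold on the log2(FPKM + 1) scale. The zona pellucida gene Zp3 was 1.68 against 3.37 FPKM, a log2 ratio of -0.71 on that scale.

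Tgm2 encodes transglutaminase 2, which cross-links proteins inside the cell and in the matrix (mm9 chromosome 2, 157942141 to 157972128). It stood at 38.7 FPKM in the KO and 1.07 in the Flox/Flox ESC, the lowest of the 6 libraries. The iPSC had 6.94 (PF 4N-), 4.45 (PF 4N+), 5.59 (TTF 4N-) and 5.15 FPKM (TTF 4N+). Between the ESC libraries the ratio was 36.0 (31.0 to 42.1, from 5051 and 179 fragments), and all 4 iPSC lines exceeded the Flox/Flox ESC. Of 9 other transglutaminase-family genes, 2 were measured and neither reached 2-fold on the log2(FPKM + 1) scale. Tgm1 was 11.5 against 7.07 FPKM. Tgm4 was 1.23 against 0.595, a log2 ratio of 0.48 on that scale.

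Tpbpa, the classical marker of spongiotrophoblast (mm9 chromosome 13, 61040053 to 61043296), stayed below 1 FPKM in all libraries. It stood at 0.241 FPKM in the KO and 0.0172 in the Flox/Flox ESC, from 11 fragments and 1. Both PF lines were at 0, with a limit of 0.0579 FPKM each, and the TTF lines had 0.308 (4N-) and 0.203 FPKM (4N+), so the highest level was in an iPSC line and not in the KO ESC. A ratio of 14.04 between the ESC libraries had an interval of 2.04 to 604, so its size is not settled at this depth. Of its longest transcript, 2.42% of 50-base words also occur in the paralog Tpbpb, which was at 0 in all 6 libraries. Ctla2b, related to cathepsin propeptides, was the 1 measured gene of a 9-gene list, at 1.95 against 0.0936 FPKM.

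Cited2, a co-regulator that binds p300 and CBP and limits HIF-dependent transcription (mm9 chromosome 10, 17443034 to 17445480), stood at 31.9 FPKM in the KO and 8.48 in the Flox/Flox ESC. The iPSC had 5.05 (PF 4N-), 4.99 (PF 4N+), 9.61 (TTF 4N-) and 9.90 FPKM (TTF 4N+). The KO level was 3.76-fold the Flox/Flox level (3.46 to 4.09, from 2196 and 746 fragments), and the gene exceeded 4 FPKM in every library. All 13 genes of the CITED, p300/CBP and hypoxia list were measured, and past 2-fold 2 were higher and 2 lower in the KO. The family members Cited1 (8.68 against 0.755 FPKM) and Cited4 (2.09 against 0.381) were higher. The hypoxia genes Epas1 (3.04 against 10.5 FPKM) and Egln3 (23.1 against 64.6) were lower.

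**Figure D3:**
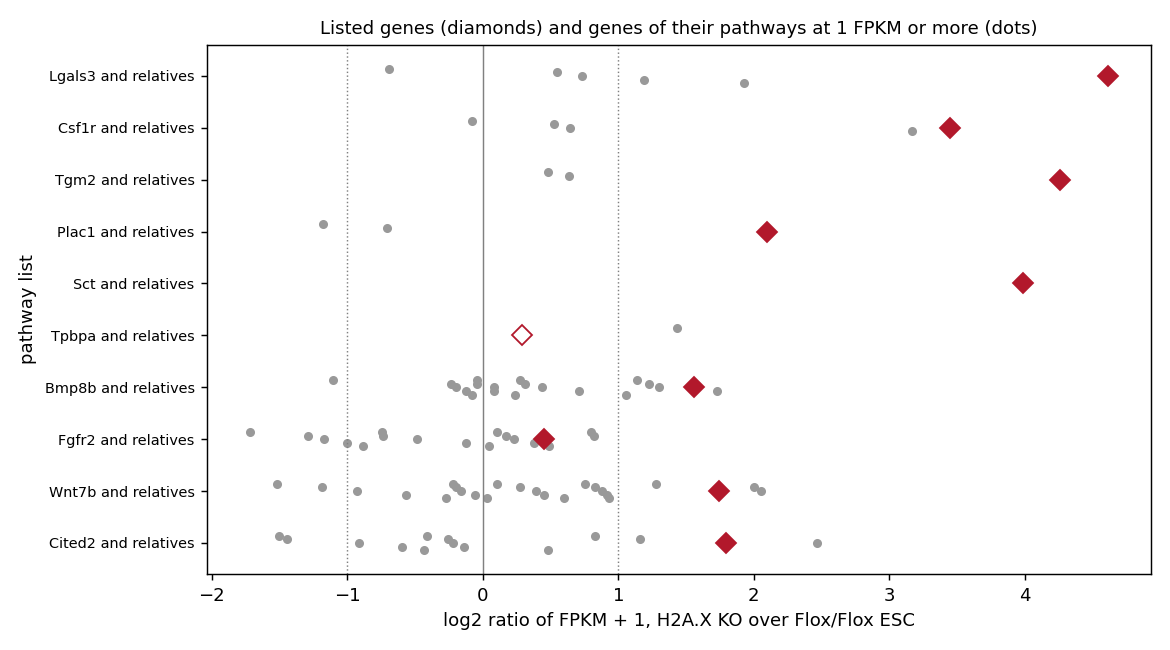
Log2 ratio of FPKM + 1, KO over Flox/Flox ESC, of the 10 genes (diamonds, open where below 1 FPKM in both) and of the measured genes of each gene's pathway list (dots); dotted lines mark 2-fold. Lgals3, Csf1r, Tgm2 and Plac1 lay beyond every measured gene of their lists, and none was measured for Sct. Bmp8b, Fgfr2, Wnt7b and Cited2 lay inside the spread of their lists. The 10 genes were selected on this contrast, so nothing is read from these positions.

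The 4N- and 4N+ iPSC lines were then compared within each parental cell type. In the PF pair, 5 of the 10 genes reached 1 FPKM. None of these differed 2-fold in either direction on the log2(FPKM + 1) scale, against 1.55% of all 11606 genes. Without the pseudocount Sct differed 2.87-fold. In the TTF pair, 6 were measured and none differed 2-fold, against 0.749% of 11354. The authors' deposited table marks none of the 7 tested genes in the PF pair, where it marks 0.537% of all tested genes, and none of the 10 in the TTF pair, where it marks 0.301%.

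Of the measured genes, Sct had the highest 4N- to 4N+ ratio in both pairs on the log2(FPKM + 1) scale, although without the pseudocount Fgfr2 had a higher ratio in the TTF pair. Its level was 3.20 FPKM in the 4N- and 1.12 in the 4N+ PF line, from 43 and 15 fragments, a ratio of 2.87 (1.56 to 5.56). In the TTF pair it was 5.45 and 3.07 FPKM, from 101 and 55 fragments, a ratio of 1.78 (1.27 to 2.51). The 4N- line was the higher one in 2 of 2 pairs, and the log2(FPKM + 1) ratios, 0.99 and 0.66, ranked 73 of 11606 and 70 of 11354. On that scale the PF value lay just under 2-fold, while the FPKM ratio without the pseudocount was 2.87.

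The 4 iPSC libraries were also fitted together with limma, with the parental cell type as a block, which leaves 1 residual degree of freedom per gene. Of 11985 genes, 14 passed an adjusted p of 0.05, which is 0.117%, and 446 had an unadjusted p below 0.05. Of the 10 listed genes 7 were tested and none passed. Sct had the smallest p among them, with a log2 difference of 0.83 (SE 0.156) and an adjusted p of 0.149 by limma. Over the alternative settings limma's adjusted p for Sct ranged from 0.000113, without small RNA genes, to 1, so the call depends on the setting. The adjusted p of Lgals3, Tgm2, Plac1, Bmp8b, Fgfr2 and Cited2 was 0.999 each in the limma fit.

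The other genes were compared in the same way. Tgm2 was 1.56-fold higher in the 4N- PF line (1.41 to 1.72) and 1.09-fold in the 4N- TTF line (0.997 to 1.18). Wnt7b, below 1 FPKM in all 4 lines, was 1.64-fold (1.14 to 2.38) and 1.40-fold (1.08 to 1.82) higher in the 4N- line, from approximate fragments. Its FPKM ratios were 1.62 in the PF and 1.41 in the TTF pair. Fgfr2, also from approximate fragments, was level in the PF pair, at 0.992 (0.771 to 1.28). It was 1.82-fold higher in the 4N- line of the TTF pair (1.55 to 2.14). Plac1 was 1.57-fold higher in the 4N- TTF line (1.15 to 2.17), and Cited2 was 1.01 (0.879 to 1.17) and 0.971 (0.890 to 1.06). Bmp8b was lower in the 4N- PF line, at 0.720 (0.554 to 0.934), and 1.29 in the TTF pair (0.981 to 1.69). Lgals3 was 1.19 in the PF pair (0.959 to 1.49) and lower in the 4N- TTF line, at 0.791 (0.727 to 0.859). Csf1r was 0.993 in the TTF pair (0.756 to 1.31), and Tpbpa was 1.52 (0.743 to 3.21). These intervals hold counting error only, so an interval that leaves out 1 separates these 2 libraries and not the 4N labels.

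**Figure D4:**
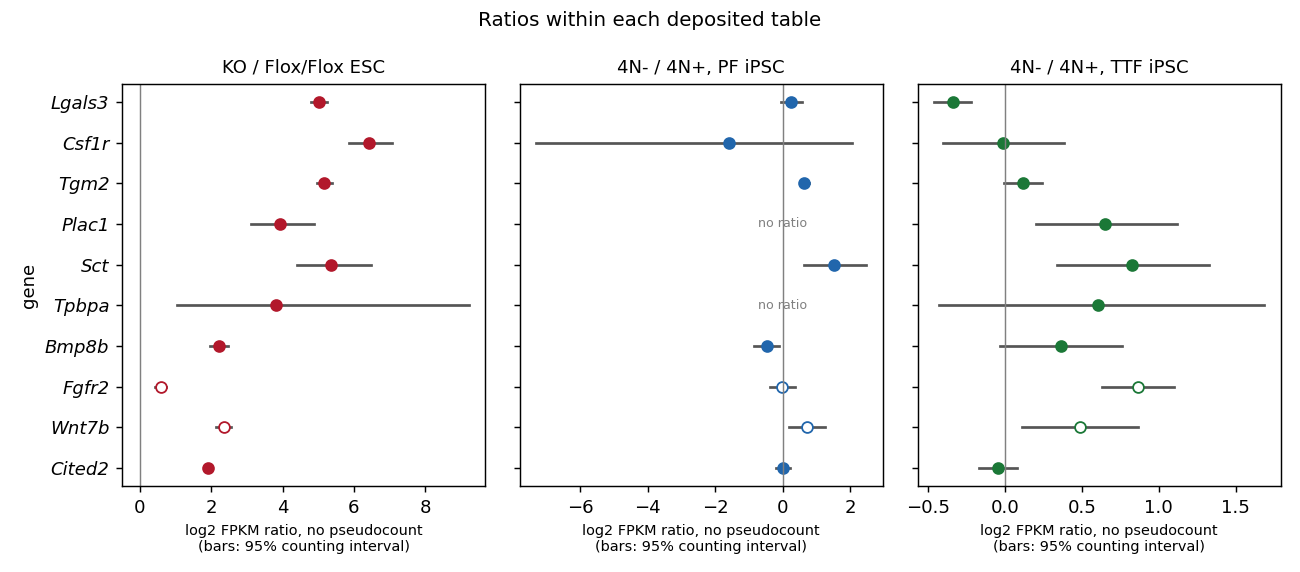
Log2 ratio of the FPKM of each gene, without a pseudocount, in the 3 tables, with 95% counting intervals as bars; open points mark approximate fragment numbers, no ratio is drawn where a 4N- PF line was at 0, and the axes differ between panels. The ESC ratios are all above 0, up to 86.5-fold for Csf1r, and Sct, Tgm2 and Wnt7b are above 0 in every panel.

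Fibroblast markers differed between the PF lines. The 12 markers summed to 6.996 FPKM in the 4N- and 60.8 FPKM in the 4N+ PF line, mostly from S100a4 (0.153 and 40.1 FPKM), and past 2-fold 4 of the 7 measured ones were lower in 4N-. Their part in the PF ratios was not tested. In the TTF pair the same sum was 5.04 FPKM in the 4N- and 5.19 in the 4N+ line.

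A difference by parental cell type was larger than that by 4N label for some genes. Of the 7 genes that reached 1 FPKM in an iPSC line, Lgals3 and Plac1 were at least 2-fold higher in both TTF lines than in both PF lines, against 0.909% of 11985 genes. At any size Lgals3, Plac1, Fgfr2 and Cited2 were higher in both TTF lines, against 28.1% of all genes. Among the iPSC, Plac1 and Fgfr2 reached 1 FPKM only in TTF lines. They thus entered these counts through the group where they were higher, and nothing is read from the counts against these shares. For Lgals3 the TTF lines had 14.3 and 18.1 FPKM and the PF lines 3.53 and 2.95, so the groups did not overlap. For Cited2 the TTF lines had 9.61 and 9.90 FPKM and the PF lines 5.05 and 4.99. The PF and TTF tables may have been scaled separately, and the median log2 difference of genes at 5 FPKM or more in all 4 lines was -0.01. With 2 lines per parental cell type, parental cells and deposited table cannot be told apart.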

How the data were processed

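Reads were passed through CASAVA and TopHat2 on mm9, per the submitters' processing notes. Which quantifier, annotation and strand setting followed is not given in the sources used here. The authors deposited 3 tables of 2 libraries each, with a value per library, a p-value and a q-value per the file headers. The deposited library values were taken as FPKM from their ranges. The 10 genes and all gene lists were chosen with earlier results of these data known. Ratios were formed within a table on the log2(FPKM + 1) scale, a gene was measured at 1 FPKM or more in either library, and calls with 1 library a group were 2-fold. Fragment numbers were recovered from single-exon receptor genes, 204 bases being taken off each transcript length; values came within 0.05 of whole numbers for 98.36% to 100% of 34 to 122 receptor values per library. For the 4 iPSC lines limma 3.58.1 (R 4.3.3) was run with a trend and Benjamini-Hochberg adjustment. The fit was also run on simulated data with the same spread for every gene, which does not test it at the spread of these libraries. The block is the parental cell type, which the labels give; the same animal is not stated. A fit without it and the other alternatives are in the closing section. Nothing says that lines sharing a label came from separate animals, so p-values measure only the spread between these lines. Named were all 10 genes and, of each list, at most 4 measured genes with the largest ESC ratio and markers below 1 FPKM in all libraries, with exceptions stated where made.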

Additional observations from a re-analysis of the deposited data

Results flagged for a closer look

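In 5 genes the 4N- to 4N+ log2(FPKM + 1) ratio had opposite signs in the PF and the TTF pair. The difference between pairs was not tested, since each pair has 1 line per label. The share of all genes with opposite signs was not computed, so nothing is read from this count. Plac1 and Fgfr2 were below 1 FPKM in both PF lines. For Lgals3, the PF ratio minus the TTF ratio was 0.52, from 0.20 and -0.32. Its counting interval held 1 in the PF pair (0.959 to 1.49) and not in the TTF pair (0.727 to 0.859). For Plac1 the difference was -0.48, from -0.07, at 0 and 2 fragments in the PF lines, and 0.41. For Bmp8b it was -0.38, from -0.24 and 0.15. For Fgfr2 it was -0.49, where the PF ratio of -0.0013 rests on about 128 and 129 fragments. For Cited2 it was 0.054, from 0.02 and -0.04, and both intervals held 1.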

How the results depend on the processing

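The 8 ESC calls remained 8 with a pseudocount of 0.1, with no expression filter and when centred, and were 7 of 7 measured genes at a minimum of 5 FPKM, where Plac1 was not measured. Over all genes the 905 at least 2-fold higher in the KO became 1586 with the pseudocount of 0.1, 571 at 5 FPKM and 1412 when centred, and the 449 lower became 202 when centred, so the higher share went from 66.8% to 87.5%. In the PF pair Sct was the 1 gene to pass 2-fold with a pseudocount of 0.1 and also when centred, and over all genes the 67 higher became 120 and the 113 lower 192 with the pseudocount of 0.1; centring moved the higher share from 37.2% to 51.1%. In the TTF pair the 21 higher became 45 with the pseudocount of 0.1. The 14 limma calls became 0 with no expression filter (1015 unadjusted), 67 at 5 FPKM, 94 without small RNA genes, and 3 with no replicate block, where the adjusted p of Sct was 1. Leaving out each library in turn, in fits without the block, gave 8 to 22 calls; these fits compare across tables and assume that a lone line varies like the others. Without small RNA genes limma's adjusted p for Sct was 0.000113 at the same difference of 0.83; the cause was not tested. Depth limited Tpbpa in the ESC, at 11 fragments and 1, and Csf1r, Plac1 and Tpbpa in the PF lines, at 3 fragments or fewer.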

Other observations

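Some genes of the pathway and marker lists differed at least 2-fold between the PF lines. Csf1, the ligand of the CSF1 receptor, was 0.460 FPKM in the 4N- and 4.64 in the 4N+ PF line, Lgals1 was 60.2 and 125, Plac8 was 7.46 and 22.8, and the FGF ligand Fgf7 was 0.0913 and 1.22. The trophoblast marker Rhox6 was 1.57 and 5.08 FPKM. All 5 differed by 2-fold or more, with the 4N+ line higher, as did the fibroblast genes Col1a1 (0.226 and 2.12), Col1a2 (0.0228 and 5.41), Postn (listed at 0 and 1.26) and S100a4. No measured gene on the 15 lists was at least 2-fold higher in the 4N- PF line on the log2(FPKM + 1) scale. On the same scale none differed 2-fold in either direction in the TTF pair. These genes were named after their values were seen, and the part of fibroblast transcripts was not tested.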
